A study of Mus musculus with 8 samples.

Results

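The insulin receptor signalling genes described here are 10 genes that carry the signal of insulin and insulin-like growth factor from the cell surface to the nucleus: the receptors Insr and Igf1r, the adaptors Irs1 and Irs2, the phosphoinositide 3-kinase subunits Pik3ca and Pik3r1, the kinases Akt1 and Akt2, and the transcription factors Foxo1 and Foxo3. They were taken by symbol from a count table of 23504 gene symbols, and all 10 were found and passed the filter on low counts that left 14711 genes for testing. RNA came from the outer cortex of the kidney of wild-type mice (strain C57Bl6/J) in 2 groups, a high fat diet group (libraries A, B, F and G) and a control diet group (libraries I, J, L and M). All mice began their diet at 6 weeks of age, ate it for 9 weeks and were 15 weeks old. The labels do not explain the M in each library title and do not say that each library came from its own mouse, so p-values here cover library-to-library spread alone. The design text names the finding of genes that differ between the diets as the purpose.

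Insulin and insulin-like growth factor bind receptor tyrosine kinases that phosphorylate IRS adaptor proteins, which then recruit phosphoinositide 3-kinase, a catalytic subunit bound to a regulatory one. The lipid it makes brings AKT kinases to the membrane, where they are activated, and AKT phosphorylates FOXO factors so that these leave the nucleus and their target genes are less transcribed. In the kidney, insulin acts on tubular sodium and glucose handling and lowers gluconeogenesis of the proximal tubule, and FOXO factors induce genes such as Pck1 and, in liver, the insulin receptor and Irs2 genes themselves.

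Libraries held between 23503593 and 30781585 expected counts. Control library J stood apart, with 50.3% of its counts on the ribosomal RNA precursor Rn45s, while the other 7 libraries had 1.23% to 13.3%. Rn45s was left out of the table before library sizes were taken, which left 13993652 counts in control J and 21793784 to 30403685 in the others. Proximal tubule markers, whose type dominates the cortex, summed to between 50337 and 55547 CPM (counts scaled to 1000000 per TMM-normalised library) in high fat libraries and between 43876 and 51547 CPM in control libraries. Of these 12 markers, 1 rose and 2 fell in the edgeR test given below. That test called 4.86% of all tested genes higher and 5.13% lower. Kap was the largest part of the sum, at 21020 to 27000 CPM on high fat and 16234 to 21691 CPM on control. Slc34a1 and Slc22a6 lay higher on high fat with no overlap. Lrp2 (9956 to 10363 CPM on high fat and 10786 to 11602 CPM on control), Cubn and Aqp1 lay lower with no overlap. The 8 thick ascending limb markers summed to 4538 to 5470 CPM in high fat libraries and 5535 to 6254 CPM in control libraries, with no overlap, and 4 of the 8 fell. The 9 fat cell markers summed to 71.0 to 77.1 CPM on high fat and 58.5 to 65.3 CPM on control, again with no overlap. Of the 3 that passed the filter on low counts and were tested, 1 rose, the lipase gene Lipe. Lipe had 23.9 to 27.4 CPM on high fat and 18.6 to 21.5 CPM on control. Fabp4, at 36.9 to 41.2 CPM on high fat and 30.99 to 38.7 CPM on control, Lipe and Plin4, at 6.01 to 9.28 CPM on high fat and 5.4995 to 8.01 CPM on control, made up nearly all of the sum. The other 6, among them the fat hormone genes Adipoq and Lep, each stayed at or under 0.325 CPM on high fat and 0.664 CPM on control. The part of these marker differences in the results that follow was not tested, and in bulk tissue fewer cells of a type and less RNA per cell cannot be told apart.

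Of the 10 genes, 2 rose on the high fat diet, Insr and Pik3ca, 0 fell, and 8 did not pass the test. DESeq2 called 3 higher (Insr, Pik3ca and Igf1r) and 0 lower, and limma-voom 2 higher and 0 lower. Over all genes DESeq2 called 949 higher and 893 lower and limma-voom 717 and 735, against 715 and 754 in edgeR. A gene is called changed here at a Benjamini-Hochberg adjusted p under 0.05 in edgeR's quasi-likelihood test, and over all tested genes 9.99% were called, 4.86% higher and 5.13% lower. The rises were small, about 1.2-fold, which is 1.19-fold for Insr and 1.22-fold for Pik3ca. In the same test, 4 of the 10 genes had an unadjusted p under 0.05 (3 with higher and 1 with lower values on high fat), against 27.4% of all tested genes. Log2 fold changes, which are high fat over control throughout, were positive for 5 of the 10 genes and negative for the other 5, with a median of 0.10 against -0.0023 over all tested genes. No member was listed in either of the authors' deposited tables of differing genes.

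**Figure D1:**
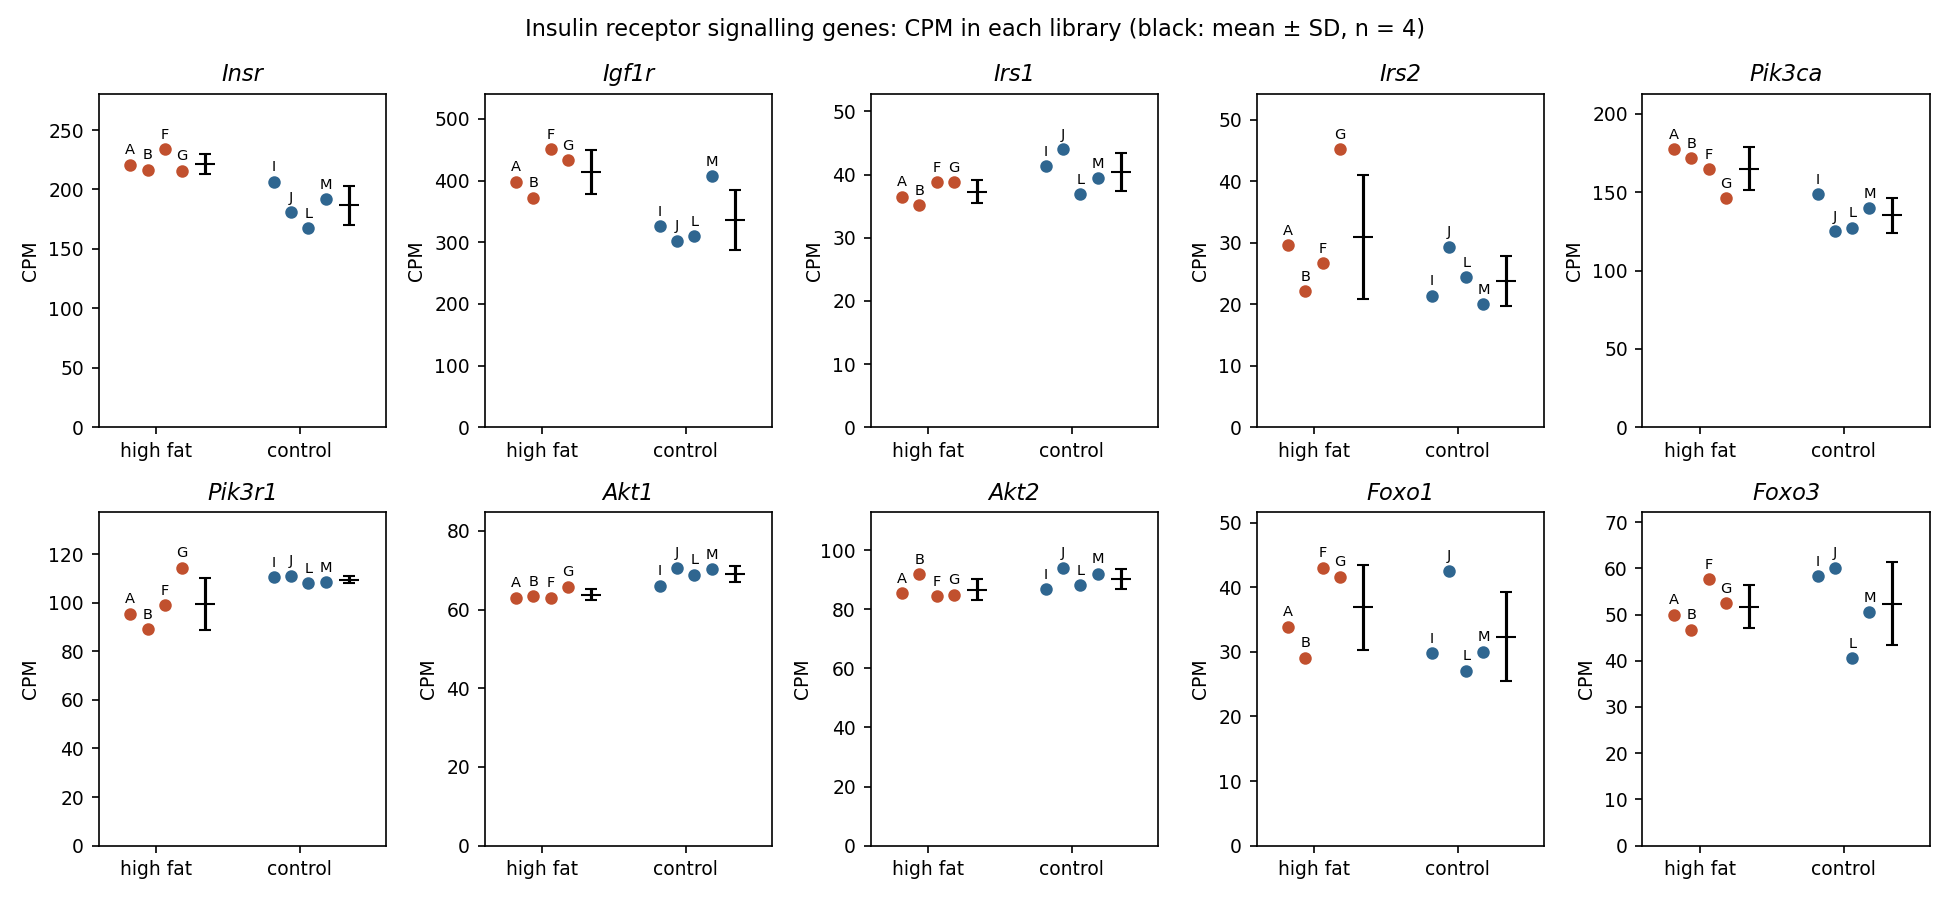
Normalised counts (CPM, vertical axis from 0) of the 10 genes in each high fat library (left, orange) and each control library (right, blue), with the mean and SD of 4 libraries in black. Insr is the gene whose high fat libraries all lie above its control libraries, and Akt1 the gene whose high fat libraries all lie below them.

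Insr, the insulin receptor gene on chromosome 8 (3122061 to 3279617, minus strand, GRCm38), was higher in every high fat library than in any control library. It had 221, 217, 234 and 216 CPM in high fat libraries A, B, F and G, against 207, 181, 167 and 192 CPM in control libraries I, J, L and M. Non-overlapping higher values of this kind were seen in 8.31% of tested genes, and among the 10 genes in Insr alone. The mean was 222 ± 8.45 CPM on high fat and 187 ± 16.7 CPM on control (SD, n = 4 each), a log2 fold change of 0.25 ± 0.067 (SE) with a 95% interval of 0.10 to 0.40 and an edgeR adjusted p = 0.0406. The call held in 1 of the 8 edgeR fits that leave a library out (without control I, adjusted p = 0.0305). It was lost in the others, with an edgeR adjusted p of up to 0.110 (without high fat F). The log2 fold change ran from 0.20 to 0.30 over these 8 fits.

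Igf1r, the receptor for insulin-like growth factor 1 (chromosome 7, 67952827 to 68233668, plus strand), had the highest mean level per length of the 10 genes on high fat, while on control Akt2 averaged more. It had 398, 372, 451 and 433 CPM in high fat libraries A, B, F and G, against 326, 302, 309.9 and 407 CPM in control libraries I, J, L and M. Control M lay among the high fat libraries, while the other 3 control libraries lay below all of them. Igf1r averaged 414 ± 35.1 CPM on high fat and 336 ± 48.2 CPM on control (SD, n = 4 each). Its log2 fold change of 0.30 ± 0.097 (SE; 95% interval 0.085 to 0.51) did not pass, with an edgeR adjusted p = 0.0749. It was called by DESeq2 (adjusted p = 0.0316) and, in edgeR, without control M (adjusted p = 0.0105). The Insr to Igf1r ratio within a library, taken on values per length, was 0.690 ± 0.0473 on high fat and 0.719 ± 0.0913 on control (SD, n = 4 each; exact two-sided permutation p = 0.629, 0.629 after adjustment over 5 ratios).

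The promoters of the adaptor genes are shown because FOXO factors are known to act on Irs2 in liver, beside that of Igfbp1, whose insulin response sequence in liver contains CAAAACAA. Windows of 300 bases (250 before to 50 after each gene's start, RefSeq, GRCm38.p6) were matched by symbol for 9 of the 10 genes, all except Insr. On either strand, CAAAACAA (reverse complement TTGTTTTG, in capitals below) occurred in 2 of the 9 windows, Irs1 and Irs2, and in 2.51% of all 32851 windows. The windows lie at chr1:82291390-82291689 (Irs1, minus strand), chr8:11008880-11009179 (Irs2, minus strand) and chr11:7197537-7197836 (Igfbp1, plus strand), and the motif begins 33, 38 and 108 bases before the RefSeq start. That start lies 471 bases upstream of the GENCODE bound of Irs2 given below, so that the Irs2 motif is 509 bases before the GENCODE start, and it lies 23 bases upstream for Irs1 and within 5 bases for Igfbp1.
Irs1: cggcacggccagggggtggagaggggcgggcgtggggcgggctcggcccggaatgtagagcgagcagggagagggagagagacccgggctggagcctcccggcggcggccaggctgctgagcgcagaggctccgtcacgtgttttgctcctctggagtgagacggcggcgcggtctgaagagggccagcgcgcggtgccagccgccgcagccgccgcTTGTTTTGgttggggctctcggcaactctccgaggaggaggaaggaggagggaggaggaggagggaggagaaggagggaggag
Irs2: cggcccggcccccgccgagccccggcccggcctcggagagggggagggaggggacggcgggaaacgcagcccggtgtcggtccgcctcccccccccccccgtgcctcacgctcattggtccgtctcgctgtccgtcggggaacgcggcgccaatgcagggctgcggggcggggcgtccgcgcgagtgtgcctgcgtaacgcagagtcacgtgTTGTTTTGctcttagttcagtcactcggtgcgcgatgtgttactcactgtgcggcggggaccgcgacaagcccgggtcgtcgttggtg
Igfbp1: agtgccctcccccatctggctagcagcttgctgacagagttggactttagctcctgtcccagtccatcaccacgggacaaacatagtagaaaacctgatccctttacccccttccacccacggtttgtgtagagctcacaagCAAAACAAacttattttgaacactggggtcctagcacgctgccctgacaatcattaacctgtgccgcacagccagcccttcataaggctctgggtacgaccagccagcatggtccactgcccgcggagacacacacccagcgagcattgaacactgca
The Irs1 and Irs2 windows hold the motif in reverse orientation and the Igfbp1 window in forward orientation. These matches of letters are a description and not evidence of binding.

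Irs1, the adaptor best known from muscle and fat (chromosome 1, 82233101 to 82291416, minus strand), was the scarcest of the 10 genes per length. It had 36.5, 35.1, 38.8 and 38.8 CPM in high fat libraries A, B, F and G, against 41.3, 44.0, 36.9 and 39.4 CPM in control libraries I, J, L and M. Control L lay among the high fat values, so the diets overlapped. Its log2 fold change was -0.11 ± 0.066 (SE; 95% interval -0.26 to 0.034; edgeR adjusted p = 0.307).

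Irs2, the main adaptor of insulin signalling in liver (chromosome 8, 10984681 to 11008458, minus strand), stood out in 1 library. It had 29.6, 22.1, 26.7 and 45.2 CPM in high fat libraries A, B, F and G, against 21.4, 29.3, 24.4 and 20.0 CPM in control libraries I, J, L and M. High fat G stood well above the other 7 libraries, which overlapped. The log2 fold change was 0.39 ± 0.19 (SE; 95% interval -0.034 to 0.82; edgeR adjusted p = 0.218), and 0.15 without high fat G. Irs2 shares exonic bases with 9530052E02Rik on the opposite strand, and no source used here says whether reads were counted by strand. Among the other members, Irs1 shares exonic bases with Gm9747 and Foxo1 with Gm20402, opposite-strand genes that were not counted. Of genes described below, Pik3r2, Fbxo32, Bcl6 and Ppp2ca also share exonic bases with opposite-strand genes, and Prkce with a gene on its own strand.

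Per length, Irs2 exceeded Irs1 in every library, by a ratio of 1.86, 1.45, 1.58 and 2.68 in high fat libraries A, B, F and G and of 1.19, 1.53, 1.53 and 1.17 in control libraries I, J, L and M. The ratio averaged 1.89 ± 0.553 on high fat and 1.35 ± 0.201 on control (SD, n = 4 each), and the exact two-sided permutation p was 0.114 (0.286 after adjustment over 5 ratios). The log2 difference of 0.45 was 0.27 without high fat G. With 4 libraries against 4 this test cannot give a p under 0.0286.

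Pik3ca, which encodes the catalytic p110-alpha subunit (chromosome 3, 32397671 to 32468486, plus strand), had the smallest p of the 10 genes. It had 177, 172, 165 and 146 CPM in high fat libraries A, B, F and G, against 149, 125, 127 and 139.8 CPM in control libraries I, J, L and M. High fat G fell just below control I, and the other 3 high fat libraries lay above all control libraries. Pik3ca averaged 165 ± 13.6 CPM on high fat and 135 ± 11.05 CPM on control (SD, n = 4 each), a log2 fold change of 0.29 ± 0.075 (SE; 95% interval 0.12 to 0.45; edgeR adjusted p = 0.0369). The call held in 3 of the 8 edgeR fits that leave a library out (without control I, control M or high fat G), and the adjusted p reached 0.0920 without control J.

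Pik3r1, which encodes the p85-alpha regulatory subunit that holds p110-alpha inactive until a receptor signals (chromosome 13, 101680563 to 101768217, minus strand), did not pass. It had 95.5, 89.1, 99.0 and 114 CPM in high fat libraries A, B, F and G, against 111, 111, 108 and 108 CPM in control libraries I, J, L and M. High fat G was the highest of all 8 libraries and the other 3 high fat libraries were the lowest. Its log2 fold change was -0.14 ± 0.071 (SE; 95% interval -0.29 to 0.019; edgeR adjusted p = 0.240), and leaving out 1 library moved it between -0.21 (without high fat G; edgeR adjusted p = 0.0554) and -0.089 (without high fat B; edgeR adjusted p = 0.437).

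The ratio of Pik3r1 to Pik3ca per length was lower in 3 of the 4 high fat libraries than in any control library. It was 0.701, 0.678, 0.785 and 1.02 in high fat libraries A, B, F and G, against 0.969, 1.16, 1.11 and 1.01 in control libraries I, J, L and M. The means were 0.797 ± 0.157 on high fat and 1.06 ± 0.0875 on control (SD, n = 4 each), a difference of -0.43 on the log2 scale, with an exact two-sided permutation p = 0.0857 (0.286 after adjustment over 5 ratios).

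**Figure D2:**
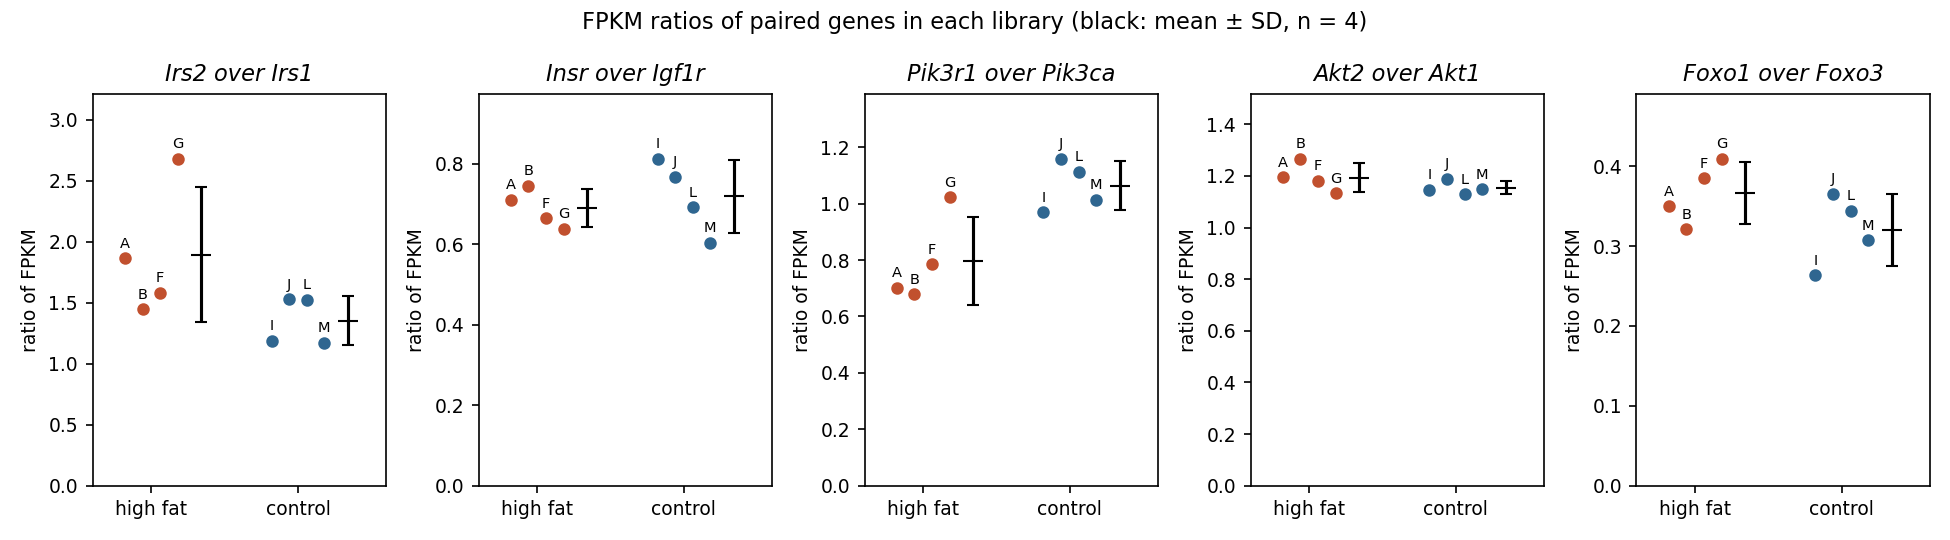
Ratios of the deposited FPKM values of 5 pairs of genes within each high fat library (left, orange) and each control library (right, blue), with the mean and SD of 4 libraries in black and axes from 0. The Pik3r1 to Pik3ca ratio is 0.678 to 0.785 in high fat A, B and F and 0.969 to 1.16 in control libraries, with high fat G at 1.02.

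Akt1, the kinase tied mainly to growth and survival (chromosome 12, 112653821 to 112674884, minus strand), was lower in every high fat library than in any control library, by a narrow margin. It had 63.0, 63.5, 63.0 and 65.8 CPM in high fat libraries A, B, F and G, against 66.0, 70.6, 68.9 and 70.3 CPM in control libraries I, J, L and M. Such non-overlapping lower values were seen in 9.20% of tested genes. The log2 fold change was -0.11 ± 0.048 (SE; 95% interval -0.22 to -0.0055), and the edgeR adjusted p = 0.162 did not pass.

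Akt2, the isoform tied mainly to glucose metabolism (chromosome 7, 27591552 to 27640826, plus strand), overlapped between the diets. It had 85.3, 91.8, 84.4 and 84.9 CPM in high fat libraries A, B, F and G, against 86.7, 94.1, 88.1 and 92.0 CPM in control libraries I, J, L and M. High fat B reached the control values and the other 3 high fat libraries were the lowest of the 8. Its log2 fold change was -0.059 ± 0.052 (SE; 95% interval -0.17 to 0.056; edgeR adjusted p = 0.506). The Akt2 to Akt1 ratio per length was 1.19 ± 0.0547 on high fat and 1.15 ± 0.0256 on control (SD, n = 4 each; exact two-sided permutation p = 0.286, 0.357 after adjustment over 5 ratios).

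Foxo1, the factor that drives gluconeogenic genes in fasted liver (chromosome 3, 52268336 to 52353221, plus strand), varied within both diets. It had 33.9, 29.1, 43.05 and 41.6 CPM in high fat libraries A, B, F and G, against 29.8, 42.6, 27.1 and 30.1 CPM in control libraries I, J, L and M. High fat F and G and control J were high and the other 5 libraries lay together. Foxo1 had a log2 fold change of 0.21 ± 0.15 (SE; 95% interval -0.12 to 0.54; edgeR adjusted p = 0.410), and leaving out 1 library moved it between 0.12 (without high fat F) and 0.35 (without control J).

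Foxo3, a factor of stress resistance and cell death genes (chromosome 10, 42181841 to 42276755, minus strand), had the log2 fold change nearest to 0. It had 49.9, 46.7, 57.6 and 52.5 CPM in high fat libraries A, B, F and G, against 58.3, 60.1, 40.5 and 50.5 CPM in control libraries I, J, L and M. All high fat values lay within the range of the control values. The log2 fold change was -0.013 ± 0.11 (SE; 95% interval -0.26 to 0.24; edgeR adjusted p = 0.960), and its sign turned in 4 of the 8 fits that leave a library out. The Foxo1 to Foxo3 ratio per length was 0.366 ± 0.0388 on high fat and 0.320 ± 0.0447 on control (SD, n = 4 each; exact two-sided permutation p = 0.171, 0.286 after adjustment over 5 ratios).

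**Figure D3:**
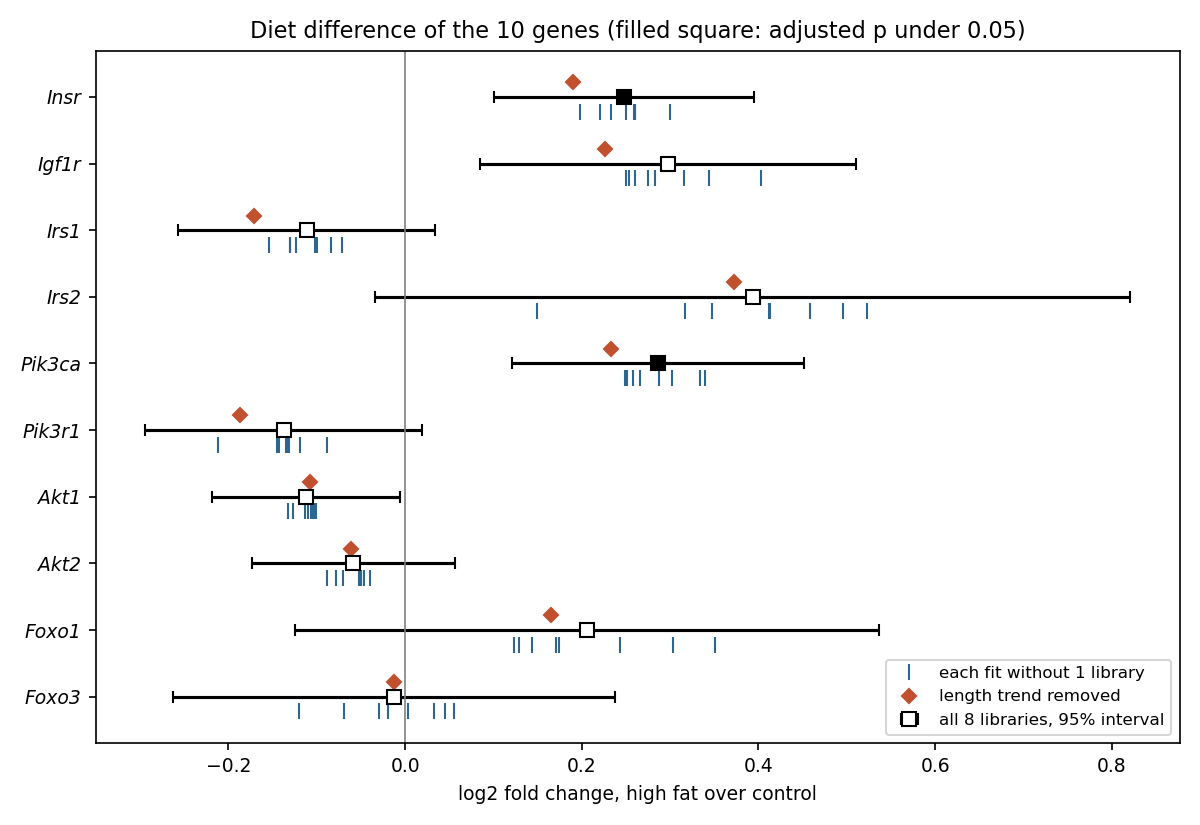
Log2 fold change (high fat over control, horizontal axis) of each of the 10 genes over all 8 libraries with its 95% interval (squares, filled where the adjusted p is under 0.05), after removal of the transcript length trend (orange diamonds) and in each fit without 1 library (blue ticks). Insr and Pik3ca are filled, their intervals run from 0.10 to 0.40 and from 0.12 to 0.45, and the fits for Foxo3 fall on both sides of 0.

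Levels of different genes were compared per length, as deposited FPKM rescaled to leave out Rn45s and averaged over all 8 libraries. Over both diets pooled, Igf1r came first at 31.4 FPKM, before Akt2 at 29.4, Akt1 at 25.1, Insr at 21.9, Foxo3 at 18.3, Pik3ca at 16.9, Pik3r1 at 15.4, Irs2 at 6.88, Foxo1 at 6.26 and Irs1 at 4.25 FPKM. The ranges over libraries of neighbours in this order overlapped, apart from Akt2 and Akt1, Pik3r1 and Irs2, and Foxo1 and Irs1. The adaptors and Foxo1 stood below the other 7 genes in these libraries. Rescaled FPKM of Igf1r was 34.5 ± 3.31 on high fat and 28.3 ± 5.15 on control, and that of Akt2 was 28.7 ± 0.819 on high fat and 30.2 ± 1.25 on control (SD, n = 4 each). The order of these 2 means thus turned between the diets, which was not tested. Control M had the high fat order (35.4 for Igf1r and 31.8 for Akt2), and in high fat B the 2 were close (30.6 and 29.9). Insr had 23.7 ± 1.09 rescaled FPKM on high fat and 20.1 ± 2.28 on control (SD, n = 4 each). Counts of the 10 genes ran from 377 to 12893 per library.

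The genes also differed in how much they varied within a diet. The coefficient of variation of CPM was 32.5% on high fat and 17.3% on control for Irs2, and 14.5% on high fat without library G. For Foxo1 it was 17.8% on high fat and 21.4% on control. For Akt1 it was 2.08% on high fat and 3.04% on control. Pik3r1 varied by 10.8% on high fat and by 1.39% on control, and by 5.29% on high fat without library G. Library G held the highest high fat value of both Irs2 and Pik3r1. Its removal from 1 diet alone lowers that spread and gives no comparison with control.

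The diet difference moved with transcript length over all genes, and the 2 called members are long transcripts. Sorted by effective length into 10 bins of equal size, tested genes had a median log2 fold change of -0.065 in the shortest bin (median 0.788 kb) and 0.054 in the longest (median 7.21 kb). Insr (9.33 kb), Igf1r (12.0 kb), Irs1 (9.13 kb), Pik3ca (8.89 kb) and Pik3r1 (6.81 kb) belong to the longest bin, while Akt1 (2.64 kb), Foxo3 (2.84 kb) and Akt2 (3.005 kb) are shorter. When the length trend of each library was removed, edgeR called 10.5% of 14514 genes (5.31% higher and 5.18% lower) and 0 of the 10 genes, although 3 of them had an unadjusted p under 0.05 with higher and 3 with lower values on high fat, against 27.7% of all genes in that fit. Insr then had a log2 fold change of 0.19 (edgeR adjusted p = 0.0861), Igf1r of 0.23 (edgeR adjusted p = 0.103) and Pik3ca of 0.23 (edgeR adjusted p = 0.113). Irs1 moved to -0.17 (edgeR adjusted p = 0.0797) and Pik3r1 to -0.19 (edgeR adjusted p = 0.0669). Within the longest bin, 3 of the 5 genes had positive and 2 negative values before and after removal.

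**Figure D4:**
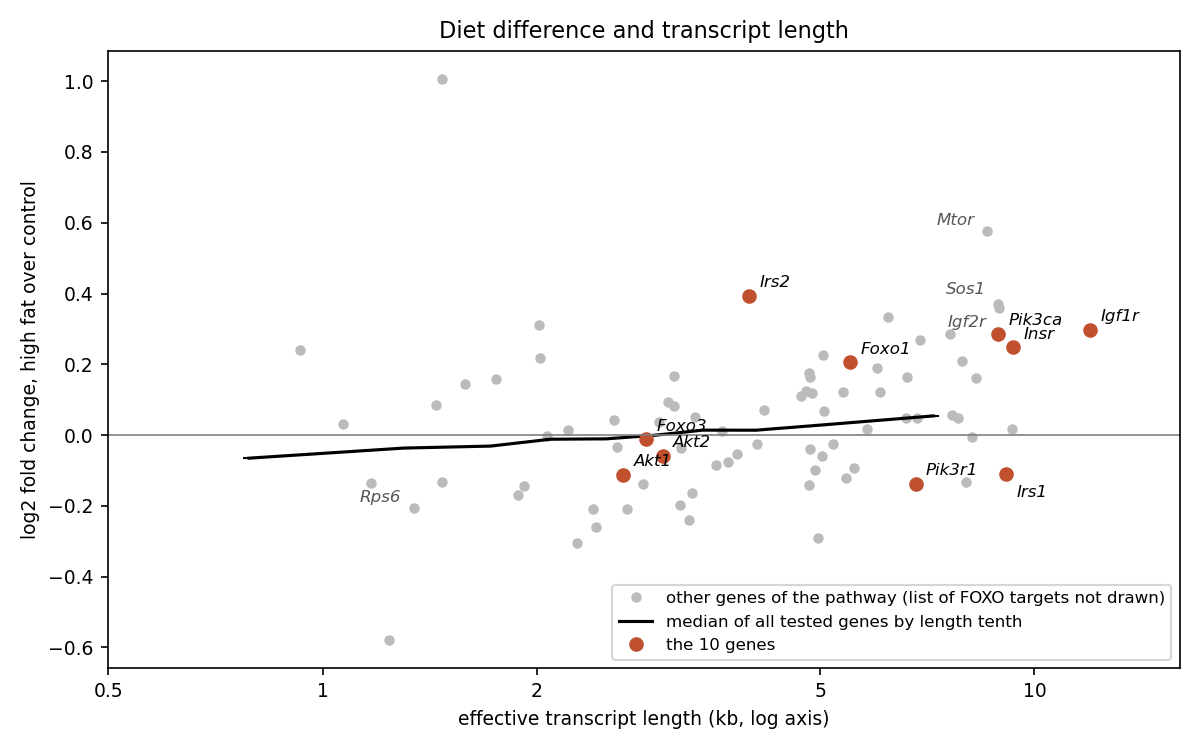
Log2 fold change (high fat over control, vertical axis) against effective transcript length in kb (horizontal log axis) for the 10 genes (orange), the other genes of the pathway (grey, without the list of FOXO targets) and the median of all tested genes in each length bin (line). The line runs from -0.065 at 0.788 kb to 0.054 at 7.21 kb, and Insr, Igf1r, Pik3ca and Mtor lie above it while Irs1 and Pik3r1 lie below.

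Among ligands, carriers and related receptors, 1 of 11 tested genes rose and 0 fell, with a median log2 fold change of 0.016. That is 9.09% called, against 9.99% of all tested genes. The riser was Igf2r, the receptor that takes up insulin-like growth factor 2 and lysosomal enzymes, at 491 ± 36.4 CPM on high fat and 383 ± 42.3 CPM on control (SD, n = 4 each), a log2 fold change of 0.36 ± 0.084 (SE; edgeR adjusted p = 0.0241). The call was lost without high fat A, high fat F or control I, with an edgeR adjusted p of up to 0.0669. Igf1, the growth factor itself, had 5.14 CPM on high fat and 5.21 CPM on control (edgeR adjusted p = 0.920). Insrr, an insulin receptor relative that senses alkaline pH, had 26.7 CPM on high fat and 25.5 CPM on control (edgeR adjusted p = 0.723). Igfbp1, an insulin-repressed carrier whose promoter is printed above, had 15.4, 7.51, 7.56 and 6.05 CPM in high fat libraries A, B, F and G, against 3.56, 2.88, 5.22 and 5.90 CPM in control libraries I, J, L and M. Its diets did not overlap, but its log2 fold change of 1.01 ± 0.30 (SE) gave an edgeR adjusted p = 0.0545. It was called without high fat G (0.0455) and without control M (0.0468) in the same edgeR test, while without high fat A its log2 fold change was 0.63 (edgeR adjusted p = 0.0946). With the length trend removed Igfbp1 was called as well, at a log2 fold change of 1.03 (edgeR adjusted p = 0.0456).

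Of the other adaptors, 1 of 13 tested genes rose and 0 fell (median log2 fold change 0.042). That is 7.69% called, against 9.99% of all tested genes. Sos1, which links receptors to RAS, averaged 58.4 ± 8.85 CPM on high fat and 45.2 ± 1.36 CPM on control (SD, n = 4 each), a log2 fold change of 0.37 ± 0.095 (SE; edgeR adjusted p = 0.0345). The call held in 2 of the 8 fits that leave a library out, those without high fat B and without control M. Of the 9 other kinase subunit genes, 0 were called by edgeR, DESeq2 or limma-voom, and in edgeR 4 of them had an unadjusted p under 0.05, against 27.4% of all tested genes (median log2 fold change 0.12). With the length trend removed, edgeR called 1 of them lower, Pik3r3, a regulatory subunit gene named after its values were seen. Pik3r2, the p85-beta gene, averaged 37.6 CPM on high fat and 33.6 CPM on control (edgeR adjusted p = 0.164). Pik3cb, the p110-beta gene, averaged 37.9 CPM on high fat and 41.9 CPM on control with no overlap (edgeR adjusted p = 0.155).

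Downstream of AKT, 1 of 22 tested genes rose and 1 fell (median log2 fold change 0.048). That is 9.09% called, against 9.99% of all tested genes. Mtor, the kinase at the centre of growth control, had 565, 513, 631 and 572 CPM in high fat libraries A, B, F and G, against 388, 319.8, 359 and 462 CPM in control libraries I, J, L and M. The diets did not overlap, and the log2 fold change of 0.58 ± 0.10 (SE; edgeR adjusted p = 0.00851) stayed called in all 8 fits without 1 library and at 0.52 with the length trend removed (edgeR adjusted p = 0.0077). Rps6, a ribosomal protein gene whose product is phosphorylated by S6 kinase, averaged 295 ± 13.5 CPM on high fat and 341 ± 16.4 CPM on control (SD, n = 4 each). It fell by 0.21 on the log2 scale (SE 0.056; edgeR adjusted p = 0.0412), a call held in 2 of the 8 fits that leave a library out, again those without high fat B and without control M. Pdpk1, the kinase that activates AKT, Foxo4 and Sgk1, an AKT relative of sodium transport, did not pass, with log2 fold changes of 0.047, 0.083 and -0.26.

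Of the 18 inhibitors, 0 were called by edgeR or limma-voom (median log2 fold change -0.030). Over all tested genes edgeR called 9.99%. DESeq2 called 1 higher and 1 lower, against 949 higher and 893 lower over all genes. In edgeR 3 of the 18 had an unadjusted p under 0.05, against 27.4% of all tested genes.

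Of the 26 genes listed as FOXO targets, 8 rose and 0 fell, with a median log2 fold change of 0.23. Pck1, Pdk4 and Angptl4 were already known to rise in these data, and without them the count was 5 of 23. The other genes of the list were also chosen with earlier results of these data known, so 5 of 23 is not independent of those results. Over all tested genes 4.86% were called higher, as given above. Several of these genes also answer to glucocorticoids, fasting or fatty acids.

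Pck1, the rate-limiting enzyme of gluconeogenesis, had 4180 CPM in the high fat library A, 4841 in B, 3681 in F and 4635 in G, against 2888, 2714, 2569 and 2426 CPM in control libraries I, J, L and M. All high fat values lay above all control values, and the log2 fold change was 0.71 ± 0.094 (SE; edgeR adjusted p = 0.00228). Bcl2l11, which encodes the cell death protein BIM, had 12.2, 13.7, 16.1 and 12.4 CPM in high fat libraries A, B, F and G, against 6.69, 4.90, 8.01 and 7.45 CPM in control libraries I, J, L and M. Its log2 fold change was 0.98 ± 0.14 (SE; edgeR adjusted p = 0.00327), again with no overlap.

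Pdk4, the kinase that shuts pyruvate out of mitochondrial oxidation, averaged 33.8 ± 18.4 CPM on high fat and 7.09 ± 2.53 CPM on control (SD, n = 4 each), a log2 fold change of 2.27 ± 0.37 (SE; edgeR adjusted p = 0.00587). Trib1, a pseudokinase that marks proteins for degradation, had 9.07, 9.93, 10.4 and 12.3 CPM in high fat libraries A, B, F and G, against 6.37, 6.92, 7.41 and 7.29 CPM in control libraries I, J, L and M, a log2 fold change of 0.58 ± 0.11 (SE; edgeR adjusted p = 0.0102). These 4 genes stayed called in all 8 fits without 1 library.

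The other 4 that rose, named here after their values were seen, were Fbxo32, Txnip, Angptl4 and Bcl6. Fbxo32, a ubiquitin ligase of muscle wasting, averaged 7.67 ± 0.120 CPM on high fat and 5.70 ± 0.311 CPM on control (SD, n = 4 each; edgeR adjusted p = 0.0135) and was called in all 8 fits without 1 library. Txnip, an inhibitor of thioredoxin and of glucose uptake, averaged 409 ± 118 CPM on high fat and 258 ± 34.6 CPM on control (SD, n = 4 each; edgeR adjusted p = 0.0381), with overlap between the diets. Its exons overlap Gm15441 on the opposite strand, at 7.25 CPM on high fat and 1.24 CPM on control, so reads of these 2 genes may not be told apart.

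Angptl4, a secreted inhibitor of lipoprotein lipase, averaged 80.4 ± 33.9 CPM on high fat and 31.5 ± 13.5 CPM on control (SD, n = 4 each; edgeR adjusted p = 0.0324). Bcl6, a transcriptional repressor, had 61.0, 85.8, 100.1 and 10.7 CPM in high fat libraries A, B, F and G, against 9.35, 6.46, 16.8 and 28.4 CPM in control libraries I, J, L and M (edgeR adjusted p = 0.0480). High fat G lay among the control libraries for Bcl6. The calls of Txnip, Angptl4 and Bcl6 held in 2, 3 and 2 of the 8 fits that leave a library out: without high fat F or G for Txnip, without high fat F, high fat G or control I for Angptl4, and without high fat G or control M for Bcl6. Among the 18 targets not called, of which the next 3 were chosen after their values were seen, G6pc, the last enzyme of glucose release, averaged 635 ± 107 CPM on high fat and 489 ± 79.1 CPM on control (SD, n = 4 each; edgeR adjusted p = 0.0883). Sod2 and Cat, FOXO targets of oxidant defence, had log2 fold changes of -0.023 and -0.021.

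**Figure D5:**
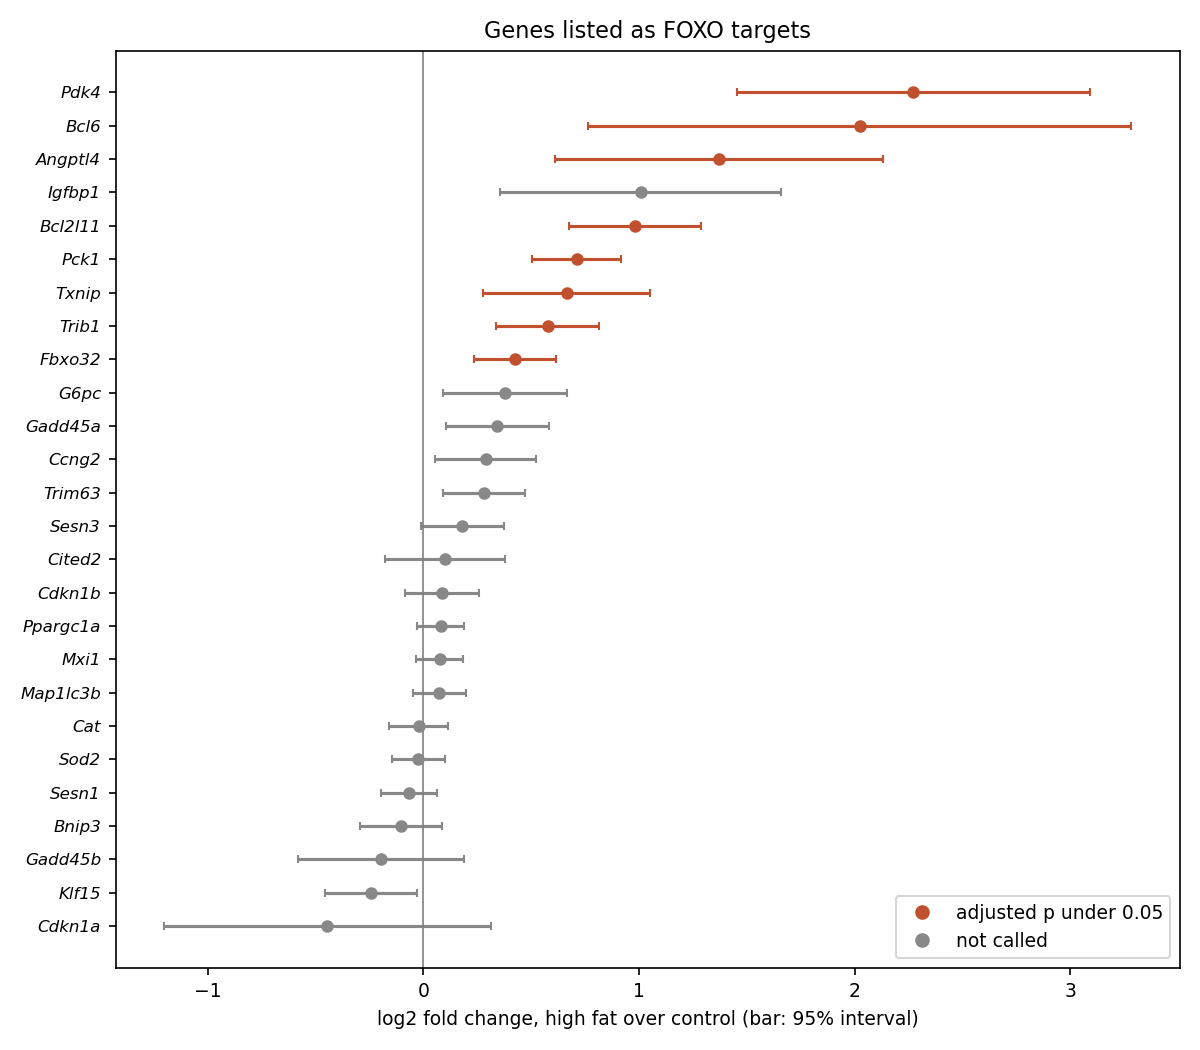
Log2 fold change (high fat over control, horizontal axis) with its 95% interval for the 26 genes listed as FOXO targets, in orange where the edgeR adjusted p is under 0.05. The 8 called genes all lie above 0, from 0.42 for Fbxo32 to 2.27 for Pdk4.

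The forkhead sequence GTAAACA (reverse complement TGTTTAC) was looked up in the same promoter windows, which were matched for 23 of the 26 targets and 5 of the 8 that rose. It occurred in 5 of the 23, in 2 of the 5, in 1 of the 9 member windows (Akt1) and in 3.65% of all 32851 windows. The windows of the 2 risers that hold it are printed with the motif in capitals, at chr3:96557707-96558006 (Txnip, plus strand, motif 121 bases before the start) and chr2:128125788-128126087 (Bcl2l11, plus strand, motif 227 bases before the start).
Txnip: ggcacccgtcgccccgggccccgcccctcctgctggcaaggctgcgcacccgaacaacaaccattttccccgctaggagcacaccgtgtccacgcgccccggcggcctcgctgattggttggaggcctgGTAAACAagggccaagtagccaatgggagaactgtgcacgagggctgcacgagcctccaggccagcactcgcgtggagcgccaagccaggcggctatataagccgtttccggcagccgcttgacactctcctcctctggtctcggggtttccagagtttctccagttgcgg
Bcl2l11: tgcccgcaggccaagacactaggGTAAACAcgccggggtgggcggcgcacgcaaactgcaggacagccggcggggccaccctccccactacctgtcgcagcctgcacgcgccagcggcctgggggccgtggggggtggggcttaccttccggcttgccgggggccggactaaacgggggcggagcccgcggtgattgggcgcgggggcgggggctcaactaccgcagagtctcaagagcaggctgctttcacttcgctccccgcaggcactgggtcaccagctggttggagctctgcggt
CAAAACAA occurred in 2 of the 23 target windows (Igfbp1 and Ccng2) and in 0 of the 5 windows of risers. A motif absent from a window says only that these letters are not in it.

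The authors' deposited tables of differing genes, which list 1133 genes by symbol and 1175 by Ensembl gene, held 6 of the pathway genes in each. In the authors' deposited table by symbol the ratio of high fat over control was 2.01 for Bcl2l11, 1.64 for Pck1, 1.495 for Mtor, 1.495 for Trib1, 0.891 for Ppp2ca and 0.869 for Rps6. For all except Ppp2ca, the phosphatase that dephosphorylates AKT, the edgeR test also made a call.

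The 5 genes whose log2 CPM followed that of Pik3ca most closely over the 8 libraries were Slc35a5 (Pearson r = 0.980), Slc35a3 (0.977), C920025E04Rik (0.977), Ssh3 (0.973) and Lztfl1 (0.973). Slc35a5 and Slc35a3 belong to the nucleotide sugar transporter family, and none of the 5 was called between the diets by edgeR, with adjusted p from 0.0876 to 0.141. All points share libraries and normalisation, and these values are a description.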

How the data were processed

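RNA of 8 libraries, 4 per diet, was sequenced after ribosomal RNA removal (TruSeq with Ribo-Zero Gold, per the labels). The authors deposited expected counts and FPKM values per gene symbol, made with CASAVA 1.8.2, RSEM 1.2.9 and mm10 per the submitters' processing notes. The authors also deposited tables with a fold (ratio) and a posterior probability, a score, for listed genes, and no source used here names their tool. A deposited FPKM column that includes Rn45s is lowered by it, most in control J.

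The 10 members and all gene lists were chosen with earlier results of these data known. Expected counts were rounded, Rn45s was dropped, and edgeR 4.0.16 (R 4.3.3; TMM, filterByExpr, quasi-likelihood F test, diet as the only term) tested high fat over control, with Benjamini-Hochberg adjustment over 14711 genes and a threshold of 0.05. Standard errors are the log2 fold change over the square root of F. CPM are TMM-normalised. FPKM was rescaled by the count total with and without Rn45s; 13 symbols had no FPKM match. Effective length came from counts over FPKM where FPKM was at least 0.2. Ratios and marker sums were tested by exact permutation over 70 splits. Positions are gene bounds in GENCODE M21. The test was checked on simulated counts with 50 changed genes at each fold. It recovered 38.0% of 1.3-fold, 72.0% of 1.5-fold, 96.0% of 2-fold and 100% of 4-fold changes, and 6.71% of its calls were false. Folds as small as those of Insr and Pik3ca were not simulated.

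Named genes were all members, up to 4 called genes of smallest p per list, 13 genes taken whatever their result (not all are reported here), and the 5 genes most correlated with the member of smallest p; others are said to be chosen after their values were seen. Alternatives were Rn45s kept, DESeq2 size factors, DESeq2 1.42.0, limma 3.58.1 (voom; log2 FPKM with 0.1 or 1 added, for a mean of at least 0.5), no filter, removal of the length trend, and leaving out each library; rescaled FPKM and a fit lacking both control J and high fat G were added after the data were seen. Library letters differ between the diets and pair nothing. Marker lists of podocytes, endothelium and skeletal muscle summed to 325 to 365, 505 to 536 and 25.7 to 37.2 CPM on high fat and 349 to 379, 506 to 532 and 27.7 to 39.8 CPM on control.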

Additional observations from a re-analysis of the deposited data

Results flagged for a closer look

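A sample far from the rest of its group was looked for in 78 groups of 4 libraries, where chance flags about 1 in 20; 3 were found, with a gap to the nearest library, over the whole range, above Dixon's critical value. Akt2 in high fat B (91.8 CPM, against 84.4 to 85.3 CPM in the other high fat libraries) gave 0.873. Igf1 in high fat G gave 0.858. Igfbp1 in high fat A (15.4 CPM, against 6.05 to 7.56 CPM in the other high fat libraries) gave 0.840, and without high fat A its log2 fold change was 0.63 rather than 1.01.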

How the results depend on the processing

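No paired analysis was possible because the diets share no library letter. The count of the 10 genes called higher was 2 with Rn45s kept, with DESeq2 size factors, with voom and without the filter, and 3 with DESeq2. It was 0 in log2 FPKM with 0.1 or 1 added, in rescaled FPKM, with the length trend removed and in the fit lacking both control J and high fat G, and 0 to 2 without 1 library, while 0 were called lower throughout. Over all genes, 64 were called higher and 27 lower in FPKM with 0.1 added, 66 and 32 with 1 added, 338 and 534 in rescaled FPKM, 244 and 173 in the fit lacking both of those libraries, against 715 and 754. Without 1 library these counts ran from 421 to 759 higher and from 318 to 769 lower. Pathway genes called higher and lower were 14 and 2 with the length trend removed, 5 and 0 in the fit lacking both (Mtor, Pck1, Bcl2l11, Pdk4 and Bcl6), and 7 to 12 and 0 to 2 without 1 library, against 11 and 1. In FPKM with 0.1 and 1 added, where control J is lowered by its Rn45s share, the log2 differences of Akt1 (0.042 and 0.037), Akt2 (0.090 and 0.085), Irs1 (0.039 and 0.022), Pik3r1 (0.0086 and 0.0034) and Foxo3 (0.15 and 0.14) turned positive; with FPKM rescaled to leave out Rn45s all 5 were negative again (-0.12, -0.073, -0.12, -0.15 and -0.015). Foxo3 was also positive with voom (0.011) and in the fit lacking both libraries (0.049). It ran from -0.12 to 0.056 without 1 library. Igf1 ran from -0.10 to 0.051 and the log2 ratio of Insr to Igf1r from -0.13 to 0.0080. The causes were not tested.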

Other observations

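Outside the genes named by rule, 9 pathway genes did not overlap between the diets and were not called, 5 of them higher and 4 lower on high fat, with edgeR adjusted p from 0.0508 to 0.243. Over all tested genes, called or not, 17.5% did not overlap, 8.31% higher and 9.20% lower on high fat. The 9 leave out called genes and genes named by rule, so they cannot be set against that share. Of the 9 pathway genes, 4 carriers and inhibitors are described, chosen after their values were seen. Igfbp3, the main carrier of circulating growth factor, averaged 231 ± 20.1 CPM on high fat and 267 ± 5.95 CPM on control (SD, n = 4 each; edgeR adjusted p = 0.0626). Ppp2ca averaged 172 ± 9.30 CPM on high fat and 194 ± 2.25 CPM on control (SD, n = 4 each; edgeR adjusted p = 0.0615). Enpp1, a membrane protein that can inhibit the insulin receptor, averaged 36.5 ± 1.68 CPM on high fat and 41.8 ± 3.49 CPM on control (SD, n = 4 each; edgeR adjusted p = 0.0881). Prkce, a lipid-activated kinase that phosphorylates the insulin receptor in liver, averaged 29.9 ± 4.02 CPM on high fat and 23.7 ± 1.83 CPM on control (SD, n = 4 each; edgeR adjusted p = 0.0508). Igfbp3 was called without high fat B (edgeR adjusted p = 0.0251), and Prkce without high fat A, high fat B or control M (edgeR adjusted p = 0.0390 to 0.0474). Prkce was also called with the length trend removed (edgeR adjusted p = 0.0438), while Igfbp3, Ppp2ca and Enpp1 were not.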
